A study of Mus musculus with 18 samples.

Results

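The 10 genes described here were grouped under magnesium transport and sensing in kidney tubules. They were chosen by name from the 55401 genes of the deposited tables, and all 10 had counts. *Cnnm2*, *Cnnm3* and *Cnnm4* encode membrane proteins of the cyclin M family, *Slc41a1*, *Slc41a2* and *Slc41a3* encode magnesium carriers, *Trpm6* and *Trpm7* encode magnesium-permeable channels, and *Rragd* and *Flcn* encode RagD and folliculin, a GTPase and its regulator on the lysosome. RNA was sequenced from 18 pools of 150 to 200 thick ascending limb (TAL) tubules, dissected by hand from the cortex (CTAL) or the outer medulla (MTAL) of mice that were male and adult. Every pool came from 1 animal. The labels give the strain C57BL/6J, and the study's methods a background that is mostly C57BL/6. All mice carried floxed alleles of *Cldn10*, the gene of a tight junction pore for sodium. The conditional knock-out (cKO) mice also carried Cre recombinase driven by the Ksp-cadherin promoter, which works in distal tubules and collecting ducts. Floxed littermates that lacked Cre are called wild type (WT). There were 5 pools of WT CTAL, 5 of cKO CTAL, 5 of WT MTAL and 3 of cKO MTAL.

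Most of the magnesium filtered by the kidney is taken up in the TAL, between the cells, through a junction built by claudin-16 and claudin-19 and driven by the transepithelial voltage. The calcium-sensing receptor and claudin-14 restrain this path. In the next segment, the distal convoluted tubule, uptake goes through the cells, by way of TRPM6 at the apical side, and the CNNM and SLC41 proteins have been placed on the basolateral exit. Inherited changes of *CNNM2*, *TRPM6* and *RRAGD* cause loss of magnesium in the urine. RagD, switched by folliculin, brings the transcription factors TFEB and TFE3 to the lysosome, where mTORC1 holds them inactive, and is itself known as a target gene of these factors, which bind the palindrome TCACGTGA.

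The stretches printed next lie upstream of the RefSeq starts of 3 of these genes and are in lower case, with any TCACGTGA in capitals. For *Slc41a1* that start and the stretch lie inside the annotated gene (chr1:131827493-131848865), downstream of its first base. They are from RefSeq (GRCm38.p6), 5′ to 3′ on the strand of the gene, and end at the RefSeq start of the gene. *Rragd* and *Slc41a1* are shown because they differed between groups, and *Trpm7* because it held the motif and was not called in any comparison.
Rragd, chr4:32982748-32982997, + strand: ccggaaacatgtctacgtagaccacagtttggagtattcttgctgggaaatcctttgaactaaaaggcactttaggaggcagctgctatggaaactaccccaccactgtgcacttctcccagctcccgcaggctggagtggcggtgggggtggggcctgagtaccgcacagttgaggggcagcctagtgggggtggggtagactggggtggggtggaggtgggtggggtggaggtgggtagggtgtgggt
Slc41a1, chr1:131827762-131827976, + strand, without the last bases before the start, which lie in an annotated exon: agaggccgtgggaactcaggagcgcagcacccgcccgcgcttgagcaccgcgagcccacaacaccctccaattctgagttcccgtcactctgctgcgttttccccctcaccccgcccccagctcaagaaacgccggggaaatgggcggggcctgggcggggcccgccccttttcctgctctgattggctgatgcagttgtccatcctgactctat
Trpm7, chr2:126876262-126876511, − strand: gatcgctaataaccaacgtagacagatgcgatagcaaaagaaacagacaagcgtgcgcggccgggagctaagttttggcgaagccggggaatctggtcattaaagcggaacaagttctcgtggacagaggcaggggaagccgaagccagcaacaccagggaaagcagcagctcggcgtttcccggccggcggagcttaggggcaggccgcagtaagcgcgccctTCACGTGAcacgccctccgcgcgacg
TCACGTGA reads the same on both strands and contains the shorter palindrome CACGTG. In the 250 bases upstream of the RefSeq starts it was present in *Trpm7* (1 match, 25 bases before the start) and not in the other 9 genes. *Slc41a3* held CACGTG alone, 213 bases before its RefSeq start. That window (chr6:90618996-90619245) also lies inside the annotated gene (chr6:90604725-90646412). Of 32851 mouse promoters of the same length, 258 (0.785%) held TCACGTGA and 1978 (6.02%) held CACGTG. A match is a run of letters and not a measured binding site.

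Estimated counts summed to between 10824299 and 62339939 per pool. Levels are given as CPM, counts scaled by library size with edgeR's TMM factors, when a gene is compared between pools. They are given as TPM, deposited values that also correct for transcript length, when genes are compared with each other. *Cldn10* lay between 383 and 579 CPM in WT CTAL and between 156 and 185 CPM in cKO CTAL. It lay between 665 and 823 CPM in WT MTAL and between 151 and 283 CPM in cKO MTAL, so deletion was incomplete. The 6 TAL markers, among them *Slc12a1* and *Umod*, summed to 40195 to 72891 CPM per pool. Markers of the distal convoluted tubule summed to 7.94 to 154 CPM, those of the proximal tubule to 23.7 to 159 CPM and those of the principal cell to 39.5 to 794 CPM. The 3 pools that stood apart were cKO CTAL replicate 2 (*Slc12a3* 60.8 CPM and the injury marker *Lcn2* 85.5 CPM), cKO MTAL replicate 18 (*Lcn2* 282 CPM) and cKO MTAL replicate 20 (*Aqp2* 539 CPM). *Xist*, a transcript of the inactive X chromosome, reached 5 CPM in 7 pools of these male mice, 2 of WT CTAL, 1 of cKO CTAL, 4 of WT MTAL and 0 of cKO MTAL. The labels of WT CTAL replicate 1 conflict, since its genotype label and the text of its title give the knock-out and its pool name the wild type. It was used as WT, by its pool name, and held 446 CPM of *Cldn10*.

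*Rragd* was the most abundant of the 10 genes, with a median of 37.0 TPM over the 18 pools. It was followed by *Trpm7* (23.5 TPM), *Cnnm2* (18.05 TPM), *Cnnm3* (12.3 TPM), *Slc41a1* (12.1 TPM), *Flcn* (8.49 TPM) and *Cnnm4* (5.29 TPM). The ranges of neighbours in this order overlapped. Below *Cnnm4*, which never fell under 3.65 TPM, came *Slc41a3* (median 0.94 TPM, at most 2.38 TPM), *Trpm6* (0.45 TPM, at most 0.75 TPM) and *Slc41a2* (0.35 TPM, at most 1.87 TPM). The first 7 genes were thus set apart from the last 3 in every pool. The last 3 genes did not reach 3 CPM in enough pools to be tested between 2 groups, so that 7 of 10 entered each comparison. *Slc41a3* entered the test of interaction as well, where 8 of 10 were tested.

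**Figure D1:**
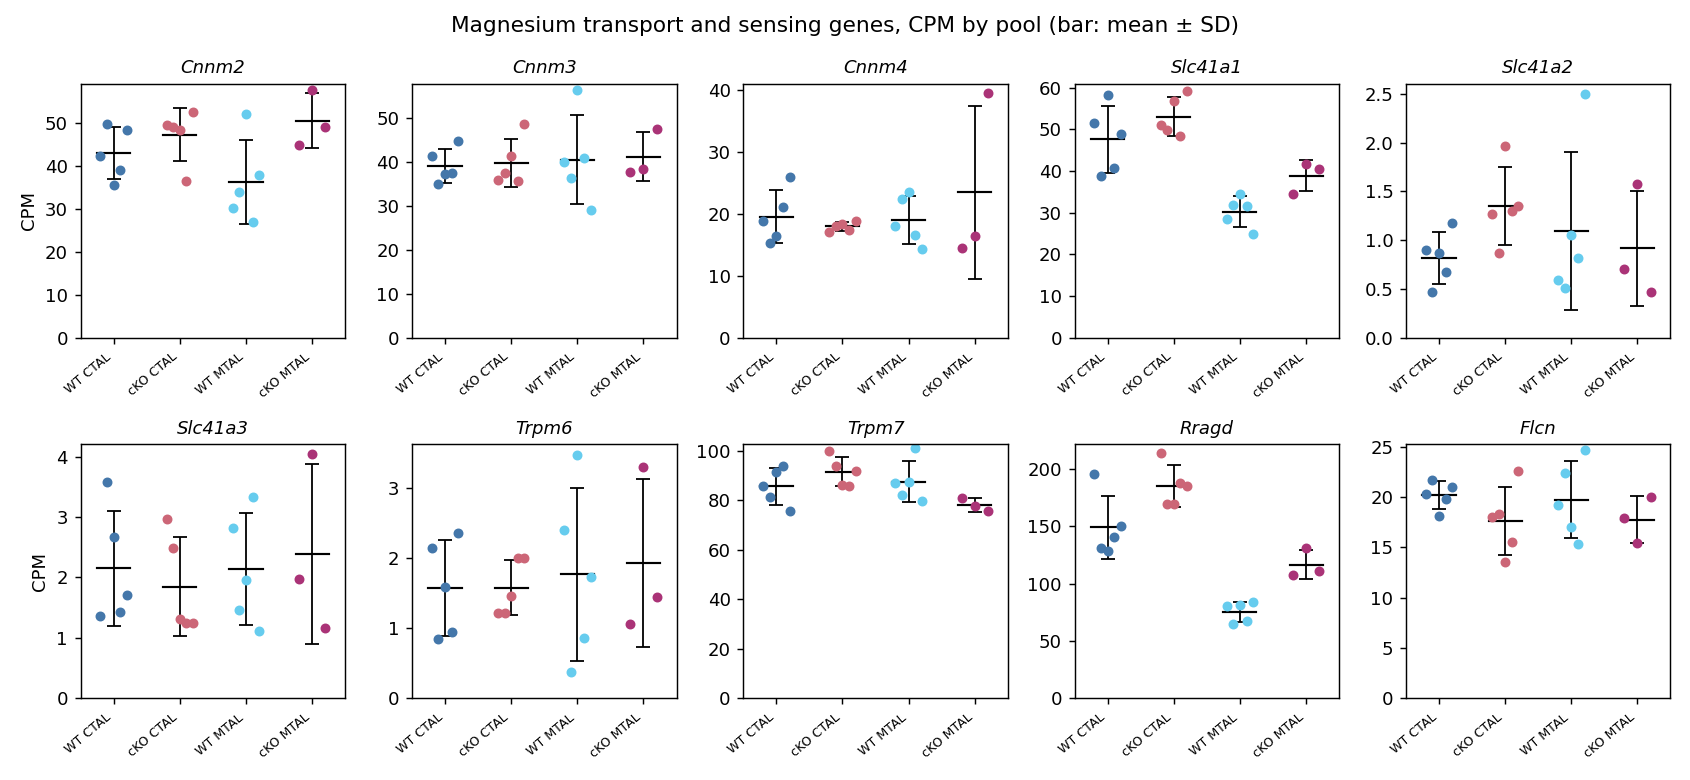
CPM (vertical axis, linear from 0) of each of the 10 genes in the 18 pools of the 4 groups, with 1 point per pool and a bar for the mean ± SD (n = 5, 5, 5 and 3). Within each genotype *Rragd* and *Slc41a1* are lower in MTAL than in CTAL, with the difference of *Slc41a1* called only in WT. *Trpm7* stays between 75.6 and 101 CPM, and *Trpm6*, *Slc41a2* and *Slc41a3* stay under 5 CPM.

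Of the genes that carry magnesium across the basolateral membrane, *Slc41a1* differed between the normal segments. This gene (ENSMUSG00000013275, chr1:131827493-131848865) encodes a sodium-dependent magnesium exporter. The WT CTAL pools held 38.8, 40.6, 48.9, 51.5 and 58.3 CPM, and the WT MTAL pools 24.8, 28.4, 31.6, 31.9 and 34.5 CPM. Every WT MTAL pool was below every WT CTAL pool. The fitted level in WT MTAL was 0.63 times that in WT CTAL (log2 fold change −0.67, SE 0.13, adjusted p = 0.00447, edgeR quasi-likelihood test). Over all genes tested, 6.87% were called between these groups and 7.30% did not overlap. The cKO CTAL pools held 48.5, 49.8, 50.9, 56.7 and 59.2 CPM and the cKO MTAL pools 34.6, 40.4 and 41.6 CPM. The cKO MTAL pools lay above all WT MTAL pools and below all cKO CTAL pools. Neither difference passed the test. The log2 fold change was 0.41 (SE 0.16, adjusted p = 0.141) against WT MTAL, −0.38 (SE 0.12, adjusted p = 0.122) against cKO CTAL, and 0.14 (SE 0.11, adjusted p = 0.693) between cKO CTAL and WT CTAL (same test).

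The fall of *Slc41a1* from WT CTAL to WT MTAL was not called in the deposited TPM. WT MTAL replicate 15 held 45.7 TPM of *Slc41a1* at 34.5 CPM, whereas the other 4 WT MTAL pools held 5.85 to 8.68 TPM. With limma on log2(TPM + 1) the log2 fold change was −0.19 (adjusted p = 0.889). It was −0.70 (adjusted p = 0.0555, limma) with that pool left out. The ratio of TPM to CPM spanned a factor of 5.77 over the pools for *Slc41a1*, 3.27 for *Trpm7* and 3.25 for *Flcn*. It spanned 8.99 for *Slc41a2* and 4.41 for *Trpm6*, both at few reads. The median span over 12525 genes was 1.64, and 1.76% of genes spanned at least as much as *Slc41a1*. With the pools that held *Xist* left out, which leaves 1 WT MTAL pool, the log2 fold change from counts was −0.66 (edgeR). With 1 pool in a group this fit cannot decide the call.

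**Figure D2:**
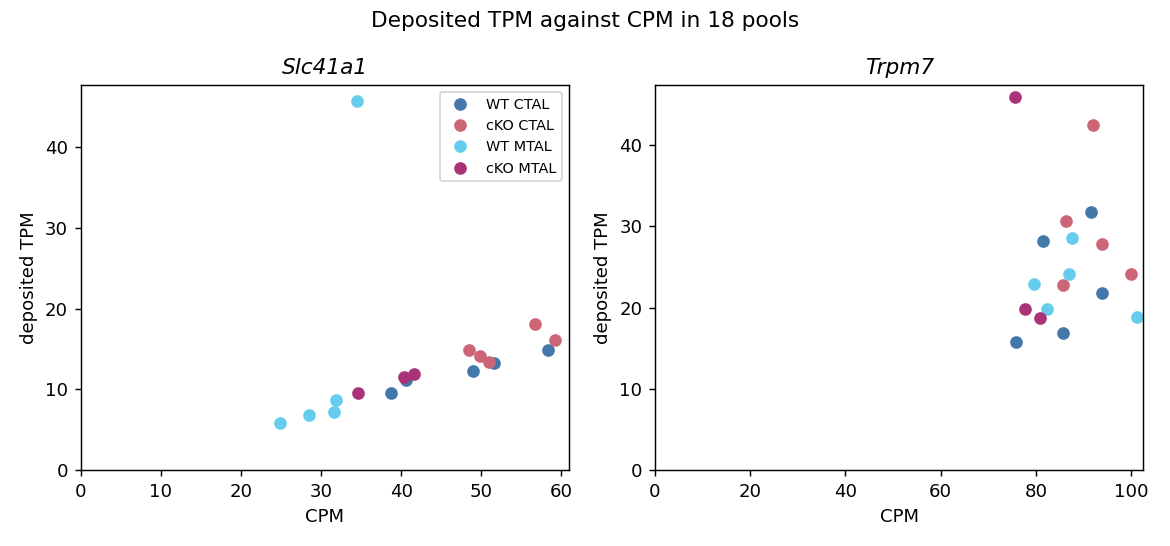
Deposited TPM (vertical axis) against CPM (horizontal axis) of *Slc41a1* and *Trpm7*, 1 point per pool, both axes linear from 0. For *Slc41a1* WT MTAL replicate 15 lies at 45.7 TPM, far above the other pools, and for *Trpm7* TPM runs from 15.8 to 45.9 while CPM stays between 75.6 and 101.

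*Cnnm2* (ENSMUSG00000064105, chr19:46761596-46880192), the cyclin M gene tied to renal magnesium loss, held 35.5, 39.1, 42.2, 48.2 and 49.6 CPM in WT CTAL. It held 36.5, 48.3, 49.0, 49.6 and 52.6 CPM in cKO CTAL. In WT MTAL it held 26.9, 30.2, 33.8, 37.9 and 52.0 CPM, and in cKO MTAL 44.9, 49.1 and 57.5 CPM. In MTAL only the highest WT pool, replicate 15, reached into the range of the cKO pools. The log2 fold change of cKO MTAL against WT MTAL was 0.53 (SE 0.20, adjusted p = 0.118, edgeR quasi-likelihood test) and did not pass the test. Without WT MTAL replicate 15 it was 0.71 (adjusted p = 0.0302, edgeR). In the other 2-group comparisons the log2 fold change of *Cnnm2* lay between −0.25 and 0.17, with adjusted p of 0.450 or more.

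*Cnnm3* (ENSMUSG00000001138, chr1:36511867-36528237) and *Cnnm4* (ENSMUSG00000037408, chr1:36471620-36508764), relatives of *Cnnm2* that lie side by side on chromosome 1, were not called in any comparison. *Cnnm3* ranged from 28.9 to 56.4 CPM, both extremes in WT MTAL, and its group means lay between 39.1 and 41.2 CPM. The log2 fold changes of *Cnnm3* lay between 0.01 and 0.13. *Cnnm4* ranged from 14.4 to 26.0 CPM in 17 pools and stood at 39.6 CPM in cKO MTAL replicate 20, the pool with high *Aqp2*. With that pool the log2 fold change of *Cnnm4* in cKO MTAL against WT MTAL was 0.35 (SE 0.30, adjusted p = 0.520, edgeR quasi-likelihood test). It turned to −0.25 without that pool.

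The *Slc41a2* (ENSMUSG00000034591, chr10:83230848-83337882) and *Slc41a3* (ENSMUSG00000030089, chr6:90604725-90646412) carriers were close to the floor of detection. *Slc41a2* had 5 to 85 reads per pool (0.46 to 2.49 CPM) and *Slc41a3* 20 to 163 reads (1.12 to 4.05 CPM). In fits with no filter on low counts neither was called. The largest log2 fold change between 2 groups was that of *Slc41a2* in cKO CTAL against WT CTAL, 0.69 (SE 0.39, adjusted p = 0.600, edgeR quasi-likelihood test). This does not show that the groups were alike.

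The channels *Trpm6* (ENSMUSG00000024727, chr19:18749983-18892511) and *Trpm7* (ENSMUSG00000027365, chr2:126791565-126876230) join a channel to a kinase in 1 protein. *Trpm6* held 0.85, 0.95, 1.59, 2.14 and 2.36 CPM in WT CTAL and 1.22, 1.23, 1.46, 2.0 and 2.01 CPM in cKO CTAL. It held 0.38, 0.86, 1.73, 2.40 and 3.47 CPM in WT MTAL and 1.06, 1.45 and 3.31 CPM in cKO MTAL. The 4 groups overlapped, and each value rested on 9 to 132 reads. Without a filter the log2 fold change of *Trpm6* lay between −0.01 and 0.31 over the 4 comparisons of 2 groups, with SE between 0.36 and 0.63 and adjusted p of 0.754 or more.

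*Trpm7*, which is expressed in most tissues, was on the TPM scale 24.8 to 241 times as abundant as *Trpm6* in the same pool, with a median ratio of 67.7. It held 75.8 to 93.9 CPM in WT CTAL, 85.7 to 99.9 CPM in cKO CTAL, 79.6 to 101 CPM in WT MTAL and 75.6 to 80.9 CPM in cKO MTAL. Its CPM spanned a factor of 1.34 over the 18 pools, the narrowest span of the 10 genes. The log2 fold changes lay between −0.16 and 0.08, and none passed the test. The cKO MTAL pools lay below every cKO CTAL pool (log2 fold change −0.16, SE 0.10, adjusted p = 0.425, edgeR quasi-likelihood test).

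Because *Trpm6* is known from the distal convoluted tubule, which follows the CTAL, its level was set against the summed CPM of 6 markers of that segment. The sum lay between 17.5 and 49.96 CPM in WT CTAL and between 22.6 and 154 CPM in cKO CTAL. *Pvalb* stayed under 1 CPM in every pool. Over the 10 CTAL pools Pearson's r of log2(CPM + 1) was 0.09 (permutation p = 0.832, adjusted p = 0.832) and Spearman's rho was 0.31 (permutation p = 0.386, adjusted p = 0.428). The adjusted values count 2 relations, 1 in each segment. Without the 2 pools farthest from the median sum, r was 0.29, and in TPM it was 0.05 with all pools and 0.57 without the 2 farthest. With *Slc12a3* alone in place of the sum, r was 0.43 (permutation p = 0.221, adjusted p = 0.441) and rho was 0.61 (permutation p = 0.0676, adjusted p = 0.135). There r was 0.77 without the 2 farthest pools, so that r depended on them. None of these tests over the 10 pools passed the threshold. In MTAL the sum lay between 7.94 and 13.04 CPM in WT and between 18.5 and 50.8 CPM in cKO pools. These are separate clusters of fewer than 6 pools, so that no r over both is given. The pool with the highest sum, cKO CTAL replicate 2, held 1.23 CPM of *Trpm6*.

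**Figure D3:**
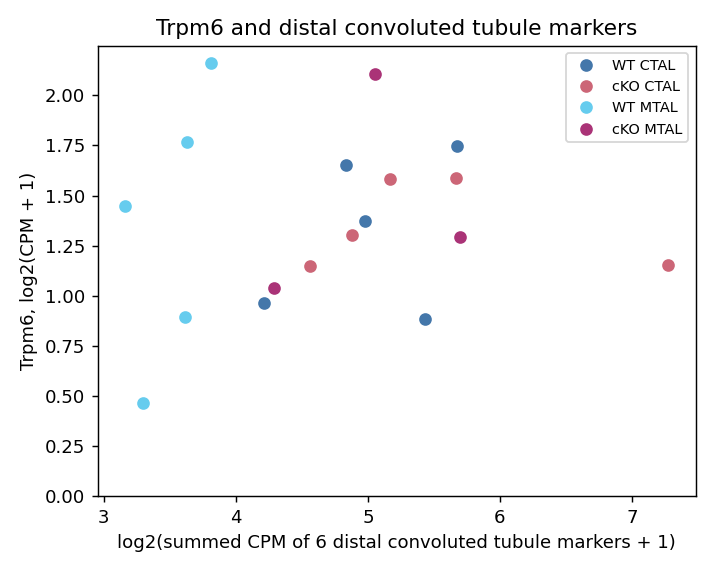
*Trpm6* as log2(CPM + 1) (vertical axis) against the log2 of the summed CPM of 6 distal convoluted tubule markers plus 1 (horizontal axis), 1 point per pool, coloured by group. Over the 10 CTAL pools r is 0.09, and 0.29 without the 2 pools farthest from the median sum. This shows neither a relation nor its absence. The WT MTAL pools lie to the left of all others.

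*Rragd* (ENSMUSG00000028278, chr4:32983037-33022180), the gene of RagD, had the clearest differences between groups. In WT CTAL it held 128.5, 131, 141, 149.9 and 196 CPM, and in WT MTAL 65.2, 67.1, 80.6, 81.1 and 84.2 CPM. In cKO CTAL it held 169, 169.6, 185, 188 and 214 CPM, and in cKO MTAL 108, 111 and 131 CPM. Each MTAL pool of WT mice lay below each of the 3 other groups, and cKO MTAL lay below cKO CTAL without overlap. The cKO CTAL and WT CTAL pools overlapped through 1 pool, WT CTAL replicate 1 at 196 CPM.

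Between the normal segments, *Rragd* in WT MTAL was 0.50 times that in WT CTAL (log2 fold change −0.99, SE 0.12, adjusted p = 3.93e-05, edgeR quasi-likelihood test). It was the larger of the 2 called differences among the 7 genes tested, ahead of *Slc41a1*. The call held under all 21 alternatives, between −1.25 and −0.88. The TAL markers also moved between these groups, from a sum of 62804 to 68837 CPM in WT CTAL to 40195 to 50416 CPM in WT MTAL, with 2 of 6 called lower. The distal convoluted tubule markers summed to 7.94 to 13.04 CPM in WT MTAL, with the 2 tested of 6 called lower. The 4 macula densa markers summed to 1.70 to 2.70 CPM against 4.90 to 22.5 CPM in WT CTAL, with 0 of 4 past the filter. Of 6 immune markers 3 were called lower and 1 higher. The proximal tubule markers summed to 77.1 to 158 CPM against 35.6 to 103 CPM, with 1 of 3 tested called higher. Those of the principal cell summed to 39.5 to 233 CPM against 80.1 to 170 CPM, with 1 of 4 tested called lower. The part of these markers in the difference was not tested. In bulk pools fewer cells of a type and less RNA per cell cannot be told apart.

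In cKO MTAL *Rragd* was 1.60 times as high as in WT MTAL (log2 fold change 0.67, SE 0.13, adjusted p = 0.00446, edgeR quasi-likelihood test). It was the only one of the 7 genes tested that was called in this comparison, in which 7.01% of all genes were called. *Rragd* and *Slc41a1* did not overlap between the groups, beside 15% of all genes. The median log2 fold change of the 7 genes was 0.35, and that of all genes 0.00. Marker lists were set beside it, and not all of them differed. The TAL markers summed to 57098 to 63979 CPM in cKO MTAL, above every WT MTAL pool, with 2 of 6 called higher and 1 lower. The injury markers summed to 30.2 to 297 CPM against 13.3 to 27.0 CPM, with 1 of 2 tested called higher. The distal convoluted tubule markers summed to 18.5 to 50.8 CPM against 7.94 to 13.04 CPM, with 1 of 2 tested called higher. Those of the principal cell summed to 67.95 to 794 CPM against 39.5 to 233 CPM, with 0 of 4 tested called. The medians of their sums were 74.0 and 56.3 CPM, and the 794 CPM came from cKO MTAL replicate 20. Those of the intercalated cell summed to 31.5 to 189 CPM against 16.02 to 71.5 CPM, with 1 of 4 tested called higher. Endothelial markers were lower, 128 to 228 CPM against 235 to 360 CPM, with 3 of 6 called. The proximal tubule markers summed to 68.7 to 159 CPM against 77.1 to 158 CPM, with 1 of 3 tested called higher. The part of these markers in the rise of *Rragd* was not tested. Without cKO MTAL replicates 18 and 20, which leaves 1 cKO MTAL pool, assumed to vary like the WT pools, the log2 fold change was 0.61 (adjusted p = 0.0968, edgeR). With the pools that held *Xist* left out, which leaves 1 WT MTAL pool, it was 0.87 (adjusted p = 0.482, edgeR, with 0 genes called in all).

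In cKO CTAL *Rragd* was 1.23 times as high as in WT CTAL, which did not pass the test (log2 fold change 0.30, SE 0.11, adjusted p = 0.259, edgeR quasi-likelihood test). This value rested on WT CTAL replicate 1, the pool with conflicting labels. Without it the log2 fold change was 0.42 (adjusted p = 0.0269, edgeR), and with it counted as cKO CTAL 0.43 (adjusted p = 0.0214, edgeR). None of the 7 genes was called or free of overlap in CTAL with the labels as used, where 1.22% of all genes were called and 3.13% did not overlap. At an unadjusted p under 0.05 there was 1 gene, *Rragd*, and DESeq2 called 0. The median log2 fold change of the 7 genes was 0.08.

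Between the segments of the cKO mice, *Rragd* in cKO MTAL was 0.66 times that in cKO CTAL (log2 fold change −0.60, SE 0.10, adjusted p = 0.0133, edgeR quasi-likelihood test). It was the only one of the 7 genes called, in a comparison where 1.75% of all genes were called. *Rragd*, *Slc41a1* and *Trpm7* were lower in cKO MTAL without overlap, beside 10.8% of all genes free of overlap. The TAL markers summed to 57098 to 63979 CPM in cKO MTAL and 64966 to 72891 CPM in cKO CTAL, with 0 of 6 called. Of the proximal tubule markers 1 of 4 tested was called higher, and of the immune markers 1 of 6 lower. The other marker lists held no call. The part of the markers in the difference of *Rragd* was not tested. Without cKO MTAL replicate 16 the adjusted p of *Rragd* was 0.0641 (log2 fold change −0.58, edgeR), and in the deposited TPM it was 0.103 (log2 fold change −0.61, limma). These comparisons share pools with each other and are not independent.

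The effect of the genotype on *Rragd* did not differ between the segments past the threshold. The interaction, the log2 fold change in MTAL less that in CTAL, was 0.36 (SE 0.17, adjusted p = 0.322, edgeR quasi-likelihood test). None of the 8 genes tested was called, and 0.286% of all genes were. At an unadjusted p under 0.05 there was 1 of the 8, *Rragd*, and DESeq2 called 0. The other 7 interactions lay between −0.21 (*Trpm7*) and 0.47 (*Cnnm4*), with adjusted p of 0.457 or more.

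**Figure D4:**
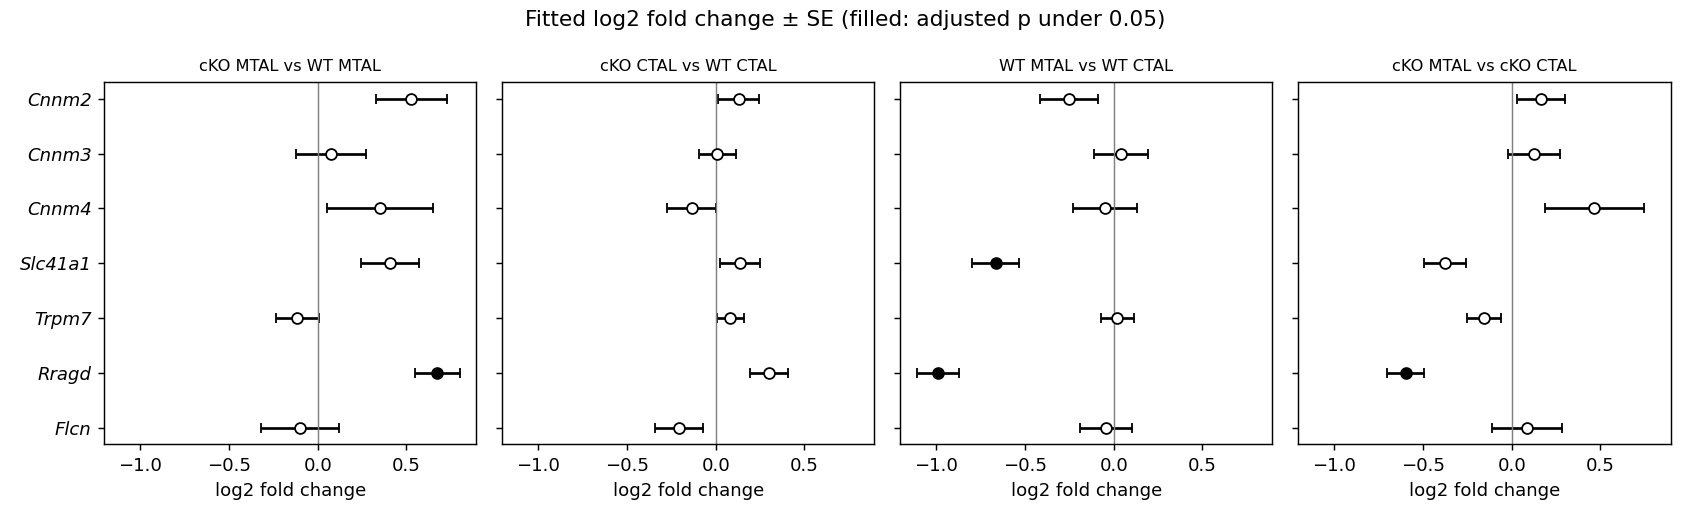
Log2 fold change (horizontal axis) with its standard error for the 7 genes tested, in 4 comparisons, with filled points for an adjusted p under 0.05. *Rragd* is called in 3 comparisons and *Slc41a1* in 1, and the points of *Cnnm2*, *Cnnm3*, *Cnnm4*, *Trpm7* and *Flcn* are open throughout.

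*Flcn* (ENSMUSG00000032633, chr11:59791408-59810016), whose product switches RagC and RagD, did not move with *Rragd*. It held 18.1 to 21.7 CPM in WT CTAL, 13.6 to 22.6 CPM in cKO CTAL, 15.3 to 24.7 CPM in WT MTAL and 15.4 to 20.1 CPM in cKO MTAL. The 4 groups overlapped, and the log2 fold changes of *Flcn* lay between −0.21 and 0.09 with adjusted p of 0.598 or more. The largest was in cKO CTAL against WT CTAL (SE 0.13).

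The genes most like *Rragd* over the 18 pools, among 12586 genes, were *Tmem52b* (Pearson's r of log2(CPM + 1) 0.96) and *Casr* (r = 0.96), the calcium-sensing receptor. Those most like *Slc41a1* were *Zmiz1* (r = 0.96) and *Trabd2b* (r = 0.94). The pools share the contrasts of segment and genotype, and these values are a description. *Casr* was lower in WT MTAL than in WT CTAL (log2 fold change −0.99, SE 0.09, adjusted p = 4.63e-06, edgeR quasi-likelihood test).

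The partners of RagD on the lysosome were measured with a list of 23 genes, all of which were tested. The list holds the other Rag GTPases, the Ragulator subunits that anchor them, folliculin's partners, the GATOR1 and TSC subunits, the sestrins and mTORC1 itself. In cKO MTAL against WT MTAL 1 of 23 was called and 7 of 23 did not overlap, beside 7.01% and 15% of all genes. The gene called was *Fnip2*, a partner of folliculin, which fell. It held 45.6 to 88.5 CPM in WT MTAL and 16.5, 23.4 and 28.7 CPM in cKO MTAL (log2 fold change −1.33, SE 0.23, adjusted p = 0.00257, edgeR quasi-likelihood test). In the deposited TPM its log2 fold change was −0.80 (adjusted p = 0.112, limma). In CTAL *Fnip2* held 33.4 to 60.3 CPM in WT and 22.9 to 36.3 CPM in cKO pools, with a log2 fold change of −0.57 (SE 0.16, adjusted p = 0.0992). *Rraga*, the partner that RagD pairs with, held 29.0 to 53.8 CPM over all pools, and its log2 fold change in cKO MTAL against WT MTAL was 0.27 (SE 0.16, adjusted p = 0.355). *Rragb*, the alternative partner, held 7.0 to 9.7 CPM in WT MTAL and 3.2 to 4.2 CPM in cKO MTAL (log2 fold change −1.16, SE 0.34, adjusted p = 0.0519). In the 3 other comparisons of 2 groups and in the interaction 0 of 23 were called. At an unadjusted p under 0.05 there were 2 in cKO CTAL against WT CTAL, 3 in WT MTAL against WT CTAL, 1 in cKO MTAL against cKO CTAL and 3 in the interaction, of which DESeq2 called 1, 1, 0 and 0. The median log2 fold change of the list in cKO MTAL against WT MTAL was −0.11.

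TFEB, TFE3 and their lysosomal targets formed a list of 20 genes, of which 19 were tested. In cKO MTAL against WT MTAL *Ctsd*, the lysosomal protease cathepsin D, rose (log2 fold change 0.70, SE 0.14, adjusted p = 0.00748, edgeR quasi-likelihood test). *Ppargc1a*, a coactivator of mitochondrial genes, fell (log2 fold change −0.65, SE 0.15, adjusted p = 0.0167). The other 17 were not called, *Tfeb* (log2 fold change 0.48, SE 0.21, adjusted p = 0.185) and *Tfe3* (0.05, SE 0.21, adjusted p = 0.916) among them. The median log2 fold change of the list was 0.05, and 2 of 19 were called, beside 7.01% of all genes. *Ctsd* (−0.31, SE 0.08, adjusted p = 0.0279) and *Atp6v1h*, a subunit of the lysosomal proton pump (−0.40, SE 0.10, adjusted p = 0.0175), were lower in WT MTAL than in WT CTAL, beside 6.87% of all genes called. Both of these calls were lost without WT CTAL replicate 1 (adjusted p = 0.0888 for *Ctsd* and 0.0673 for *Atp6v1h*, edgeR). That of *Ctsd* was also lost without WT CTAL replicate 3 or 8 or WT MTAL replicate 13, 15 or 17. In cKO MTAL against WT MTAL *Ppargc1a* lost its call without replicate 20 of cKO MTAL (−0.53, adjusted p = 0.0870, edgeR) and in TPM (−0.39, adjusted p = 0.274, limma). With cKO MTAL replicates 18 and 20 left out, *Ctsd* was at 0.39 there (adjusted p = 0.269, edgeR, 1 cKO pool). In cKO CTAL against WT CTAL, in cKO MTAL against cKO CTAL and in the interaction 0 of 19 were called. There were 4, 2 and 4 at an unadjusted p under 0.05, and DESeq2 called 1, 0 and 0.

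Among 13 other magnesium carriers and channels, of which 11 were tested, *Cnnm1*, the fourth cyclin M gene, fell in the knock-out. It held 46.7, 47.1, 49.8, 59.6 and 62.5 CPM in WT MTAL and 22.9, 23.7 and 25.2 CPM in cKO MTAL. In WT CTAL it held 32.4, 34.7, 35.4, 37.8 and 40.7 CPM, and in cKO CTAL 17.7, 19.996, 24.0, 24.5 and 28.4 CPM. No cKO pool reached the WT pools of its segment, and the WT segments did not overlap either. Among all genes tested, 15% did not overlap between cKO and WT MTAL, and 3.13% between cKO and WT CTAL. Between the WT segments 7.30% of all genes did not overlap. In cKO MTAL *Cnnm1* was 0.47 times as high as in WT MTAL (log2 fold change −1.10, SE 0.16, adjusted p = 0.000719, edgeR quasi-likelihood test). In cKO CTAL it was 0.63 times as high as in WT CTAL (log2 fold change −0.67, SE 0.13, adjusted p = 0.0169). It was 1.46 times as high in WT MTAL as in WT CTAL (log2 fold change 0.54, SE 0.11, adjusted p = 0.00469). In the deposited TPM (limma on log2(TPM + 1)) none of these 3 calls held. The log2 fold changes were −0.78 (adjusted p = 0.0631) in MTAL, −0.59 (adjusted p = 0.113) in CTAL and 0.34 (adjusted p = 0.244) between the WT segments. The call in CTAL was also lost with WT CTAL replicate 1 counted as cKO (−0.50, adjusted p = 0.231, edgeR) and without cKO CTAL replicate 21 (−0.63, adjusted p = 0.0506). It was lost without the *Xist* pools too (−0.55, adjusted p = 0.131, edgeR). Leaving these out keeps 1 WT MTAL pool, and the log2 fold change was then −1.02 in MTAL and 0.50 between the WT segments. The fitted sign of *Cnnm1* was opposite to that of *Rragd* in these 3 comparisons, in CTAL without a call for *Rragd*.

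*Nipal3*, a relative of the magnesium transporter NIPA2, held 188 to 239 CPM in WT MTAL and 136 to 162 CPM in cKO MTAL (log2 fold change −0.47, SE 0.12, adjusted p = 0.0326, edgeR quasi-likelihood test). This call was lost in 7 of the 8 fits that left out 1 of the pools (all but that without WT MTAL replicate 17), with log2 fold changes of −0.51 to −0.37 over the 8 (adjusted p between 0.0285 and 0.0998). In the deposited TPM the log2 fold change was −0.18 (adjusted p = 0.560, limma). *Nipa1* (log2 fold change −0.14, SE 0.31) and *Nipa2* (0.22, SE 0.20) were not called in cKO MTAL against WT MTAL. The median log2 fold change of the 11 genes was 0.05 in this comparison, beside 0.00 for all genes. Of the 11, 2 were called, both lower, beside 7.01% of all genes. In cKO CTAL and in WT MTAL against WT CTAL 1 was called each, *Cnnm1*, beside 1.22% and 6.87% of all genes. In cKO MTAL against cKO CTAL 0 of 11 were called (2 at an unadjusted p under 0.05 and 0 by DESeq2), as in the interaction (2 and 0).

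**Figure D5:**
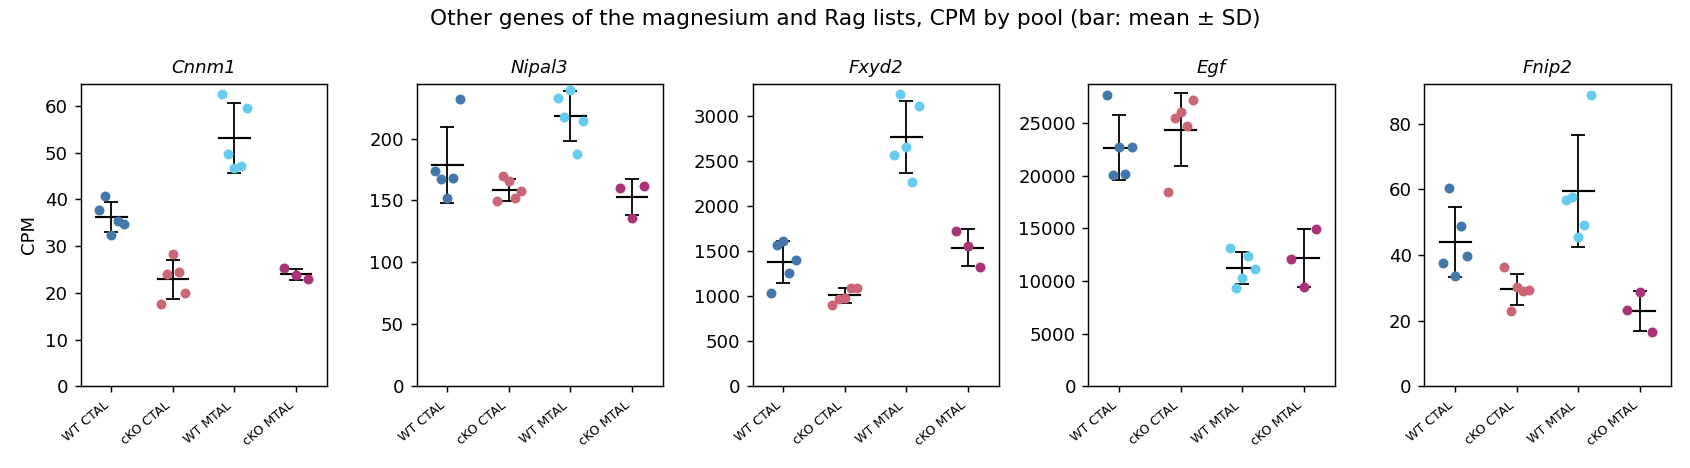
CPM (vertical axis, linear from 0) of *Cnnm1*, *Nipal3*, *Fxyd2*, *Egf* and *Fnip2* in the 18 pools of the 4 groups, with 1 point per pool and a bar for the mean ± SD. *Cnnm1* is lower in cKO pools of both segments, *Egf* is lower and *Fxyd2* higher in MTAL than in CTAL.

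The partners and regulators of these proteins formed a list of 12 genes, of which 11 were tested. It holds the PRL phosphatases that bind cyclin M proteins, EGF and its receptor, which act on TRPM6, and the sodium pump with its gamma subunit. *Egf* was lower in WT MTAL (9376 to 13114 CPM) than in WT CTAL (20054 to 27658 CPM), with a log2 fold change of −1.02 (SE 0.11, adjusted p = 1.89e-05, edgeR quasi-likelihood test). In the cKO mice the same difference was −0.93 (SE 0.18, adjusted p = 0.0248). *Fxyd2*, the gamma subunit, was higher in WT MTAL (2273 to 3246 CPM) than in WT CTAL (1040 to 1614 CPM), with a log2 fold change of 1.0 (SE 0.13, adjusted p = 8.51e-05). In the cKO mice it was 0.68 (SE 0.11, adjusted p = 0.0105). Between the cKO segments the call of *Egf* was lost without cKO CTAL replicate 4, 7 or 9 or cKO MTAL replicate 16 (adjusted p up to 0.0729, edgeR). The call of *Fxyd2* was lost there without cKO CTAL replicate 7 or cKO MTAL replicate 16 (adjusted p up to 0.0673). *Fxyd2* fell in cKO MTAL, to 1320, 1564 and 1731 CPM (log2 fold change −0.80, SE 0.14, adjusted p = 0.00292). In TPM this was −0.71 (adjusted p = 0.0534, limma), and between the cKO segments the adjusted p in TPM was 0.0921 for *Fxyd2* and 0.0800 for *Egf*. Its value in cKO CTAL, −0.46 (SE 0.11, adjusted p = 0.0735), did not pass the test.

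*Egfr*, the EGF receptor, fell in cKO MTAL from 33.8 to 47.9 CPM in WT MTAL to 17.2, 21.1 and 26.2 CPM (log2 fold change −0.78, SE 0.19, adjusted p = 0.0225, edgeR quasi-likelihood test). In the deposited TPM its log2 fold change turned to 0.06 (adjusted p = 0.959, limma), in a fit where the median of all genes was 0.19. The call was lost without cKO MTAL replicate 16 or 20 or WT MTAL replicate 15 or 19 (adjusted p up to 0.0887, edgeR). The genes at the head of the list, *Ptp4a1* (log2 fold change 0.32, SE 0.18) and *Ptp4a2* (0.07, SE 0.12), were not called there. With *Fxyd2*, 2 of 11 were called in cKO MTAL against WT MTAL, beside 7.01% of all genes. In cKO CTAL against WT CTAL 0 of 11 were called, with 4 at an unadjusted p under 0.05 and 1 called by DESeq2. In the interaction 0 were called, with 1 at an unadjusted p under 0.05 and 0 by DESeq2.

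The list of the paracellular path that the TAL uses for magnesium holds 5 genes, among them the deleted one. All 5 were called in cKO MTAL against WT MTAL, 4 higher and *Cldn10*, the deleted gene, lower, beside 7.01% of all genes. *Cldn16* held 19.9 to 25.3 CPM in WT MTAL and 60.1, 61.6 and 85.6 CPM in cKO MTAL (log2 fold change 1.73, SE 0.16, adjusted p = 1.43e-05, edgeR quasi-likelihood test). *Cldn14* (4.81, SE 0.63, adjusted p = 0.000242) ranged from 17.6 to 149.7 CPM in cKO MTAL. Without replicate 20 its log2 fold change was 3.09 and stayed called, and DESeq2 gave no adjusted p for it. *Cldn19* (0.64, SE 0.13, adjusted p = 0.00763) and *Casr* (0.70, SE 0.11, adjusted p = 0.00143) changed by about as much as *Rragd*. With cKO MTAL replicates 18 and 20 left out, which leaves 1 cKO pool, 2 of the 4 then tested were called. In cKO CTAL 3 of 5 were called, *Cldn16* and *Cldn14* higher and *Cldn10* lower, beside 1.22% of all genes. Between the WT segments *Cldn16* and *Casr* were lower and *Cldn10* higher in MTAL, beside 6.87% of all genes called. Between the cKO segments *Cldn16* and *Casr* were lower, beside 1.75% of all genes called. Between the cKO segments the call of *Cldn16* was lost in 7 of 8 fits that left out 1 pool (all but that without cKO MTAL replicate 18), and that of *Casr* in 5 (cKO CTAL replicates 2, 4, 7 and 9 and cKO MTAL replicate 16). The call of *Cldn16* in cKO CTAL was lost in 4 of 10 such fits (cKO CTAL replicates 9 and 21 and WT CTAL replicates 10 and 22, adjusted p up to 0.0594, edgeR). *Cldn16* was the 1 gene of the 5 called in the interaction (1.23, SE 0.16, adjusted p = 0.00121), beside 0.286% of all genes.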

How the data were processed

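Per the labels and the study's methods, poly-A RNA was sequenced with paired ends after a strand-specific preparation, and reads were mapped to mm10 with DRAGEN. The methods name fastp for trimming and the submitters' notes Trimmomatic. Counting by strand is not given in the sources used here, and 5 of the 10 genes overlap an annotated gene on the other strand. The authors deposited estimated counts per gene, not normalized and with decimals, and TPM values, corrected for length and scaled to 1 total. The estimated counts were rounded. Genes with 3 CPM in at least 5 pools, or in 3 where cKO MTAL entered, were tested with edgeR's quasi-likelihood test after TMM (version 4.0.16, R 4.3.3), each comparison on its own 2 groups and the interaction on all 18 pools. A gene with a Benjamini-Hochberg adjusted p under 0.05 over all genes was called. Alternatives used edgeR's likelihood ratio test, DESeq2 (1.42.0) and limma (3.58.1) on TPM. Relations were tested with 100000 permutations. Scripts were tested on simulated data. Pools of 1 group differed by more than sampling noise (chi-square per gene 14.8 to 132 over 33 pairs). Each pool is from 1 mouse, and p-values measure the spread between mice. The study excluded 2 pools of cKO MTAL and 1 of cKO CTAL, the latter for its *Cldn10* level, and these were not analysed here.

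The 10 genes and all lists were chosen with earlier results of these data known. Beside the 10 genes, the text names members of a list that were called (at most the 3 of largest change per list and comparison), the first 2 genes of each list and, for each gene, the 2 genes most correlated with it. *Ptp4a1* has 2 identifiers, and the one with more counts was used. All columns were mapped to pools (0 left out).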

Additional observations from a re-analysis of the deposited data

Results flagged for a closer look

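In 2 of the 30 groups of 5 pools tested (10 genes in 3 groups), 1 pool lay far from the other 4 by Dixon's criterion, which chance meets in about 1 of 20 groups. *Cnnm2* in cKO CTAL replicate 9 stood at 36.5 CPM, and the next pool at 48.3 CPM. *Slc41a2* in WT MTAL replicate 19 stood at 2.49 CPM, and the next pool at 1.06 CPM. The cKO MTAL group, with 3 pools, was not tested in this way.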

How the results depend on the processing

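The number of the 10 genes called in cKO MTAL against WT MTAL, 1 with the tests as reported, was 3 when all 18 pools were fitted together (*Rragd*, *Cnnm2* and *Slc41a1*), 2 in 1 fit of all pools with a term for *Xist*, 0 with the *Xist* pools left out and 0 without the pools that stand apart. These last fits left 1 WT MTAL pool and 1 cKO MTAL pool, respectively, assumed to vary like the other group. With each pool left out in turn it was 1 to 2. In cKO CTAL against WT CTAL it was 0, and 1 with WT CTAL replicate 1 counted as cKO; leaving out 1 pool gave 0 to 1. In WT MTAL against WT CTAL it was 2, and 1 with limma on log2(TPM + 1), with log2(TPM + 0.1), and with log2(TPM + 1) and WT MTAL replicate 15 left out. Leaving out 1 pool gave 2 to 2. Without the *Xist* pools 1 WT MTAL pool remained in this comparison, so that no count is given. In cKO MTAL against cKO CTAL it was 1, 2 with DESeq2 and its own size factors (*Slc41a1* added) and 0 with limma on TPM at both pseudocounts; leaving out 1 pool gave 0 to 1. The interaction gave 0 throughout. Fits that leave out pools hold fewer samples, and the other causes were not tested. The alternatives on *Xist*, the pools that stand apart and WT MTAL replicate 15 were chosen after the data were seen, and where fewer than 7 pools remained the filter asked for 3 pools. *Egfr* in cKO MTAL against WT MTAL reversed in TPM, to 0.0598 and 0.0571 with the pseudocounts 1 and 0.1. Over the alternatives, the genes called of all tested ran from 0 to 2136 (845 as reported) in cKO MTAL against WT MTAL, from 29 to 360 (143) in cKO CTAL against WT CTAL, from 352 to 1069 (800) between the WT segments, from 58 to 850 (211) between the cKO segments and from 0 to 570 (36) in the interaction. In cKO MTAL against WT MTAL the called list genes ran from 0 to 3 for the Rag list (1 as reported), from 0 to 2 for the other carriers, the partners and the TFEB list (2 each) and from 0 to 5 for the paracellular list (5). Between the WT segments they ran from 0 to 3 for the TFEB list (2), from 0 to 2 for the other carriers (1), from 0 to 1 for the Rag list (0) and from 2 to 4 for the paracellular list (3). Between the cKO segments they ran from 0 to 2 for the partners (2), from 0 to 3 for the paracellular list (2) and from 0 to 1 for the other carriers (0). In cKO CTAL against WT CTAL they ran from 0 to 1 for the other carriers (1) and for the partners, the Rag and the TFEB lists (0), and from 2 to 3 for the paracellular list (3), which ran from 0 to 3 (1) in the interaction. With limma on log2(TPM + 1) the median of all genes lay at 0.19 in cKO MTAL against WT MTAL and at 0.13 in cKO CTAL against WT CTAL. The TPM values of *Egfr*, *Nipal3*, *Cnnm1* and *Fnip2* in these comparisons were not corrected for this. No paired analysis was possible because the groups share no replicate numbers. Depth limits *Trpm6*, *Slc41a2* and *Slc41a3*, with as few as 5 reads in a pool.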

Other observations

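For the members not yet described in this way, the genes with the most similar pattern over the 18 pools were *Lrrc41* and *Rnf10* for *Cnnm2* (Pearson's r of log2(CPM + 1) 0.83 each), *Cdk12* (0.81) and *Mef2d* (0.79) for *Cnnm3*, and *Pm20d2* (0.92) and *Ift172* (0.89) for *Cnnm4*. They were *Erbb4*, a receptor of the EGF receptor family (0.81), and *Pdilt* (0.79) for *Trpm7*, *Mrps24* (0.79) and *Psap*, a lysosomal protein (0.77), for *Flcn*, and *Tgm2* (0.75) and *Mbd2* (0.73) for *Slc41a3*. The values are a description over 12586 genes and carry no test.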
